A study of Mus musculus with 12 samples.

Results

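The transcripts described here come from 38 genes of T cells, measured in gonadal (peri-uterine) white fat of 12 pregnant mice at stage E17.5. The genes were chosen by symbol from what they encode, 19 for T cells in general and 19 for regulatory T cells, out of 20632 gene symbols in the count tables. All 38 symbols were found. The general genes hold the T cell receptor complex (4 genes), the coreceptors (3), receptor signalling (4), accessory surface receptors (6) and transcription factors (2). The regulatory genes hold a core of receptors with Foxp3 (9), transcription factors (4) and genes of regulatory T cells in tissues (6).

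Each of the 3 groups held 4 animals. In the KO vehicle group the label gives a knockout of Tnfrsf11a, the gene of the receptor RANK, with Foxn1-Cre, and vehicle as the treatment. KO Treg animals carry the same genotype and were given a treatment labelled Treg, without a stated dose, route, time or source of cells. WT vehicle animals are named by the same Tnfrsf11a label without Cre, and were given vehicle. All 12 were pregnant at the same stage, and the labels give no strain, age or further allele. Foxn1 is active in thymic epithelium, so by the label the knockout is expected there and not in fat. The deletion itself was not measured in these data. Tnfrsf11a had 44 to 90 counts in every fat library and Foxn1 had 0 in all 12. Neither checks the knockout, since the cells expected to delete the gene are not those of this tissue.

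A T cell recognises its antigen through a receptor whose signal leaves by the CD3 chains and CD247. The kinase LCK phosphorylates these chains, the kinase ZAP70 acts after it, and the adaptor LAT passes the signal on. Regulatory T cells are the subset that restrains other immune cells. They depend on the transcription factor FOXP3 and bind interleukin 2 with high affinity through IL2RA. In visceral fat they form a resident population known for the interleukin 33 receptor IL1RL1 and for GATA3 and BATF, and most of them are selected in the thymus.

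The 4 WT vehicle libraries held 5551967 to 12972655 counts, the KO vehicle libraries 8350348 to 9617503, and those of KO Treg 6583263 to 8746946. Markers of fat cells (Adipoq, Plin1, Fabp4, Lipe and Cidec) summed to 28899 CPM or more in every library, with a highest value of 47109. CPM here means a count divided by its library total, which was first scaled by TMM, and set to a common size. Chi-square per degree of freedom was at least 11.8 for each of the 66 pairs of libraries, so none was a second copy of another. Some libraries stood apart. A list of 8 placental genes summed to 834 counts in KO vehicle 1 and 2238 in KO Treg 2, and to 114 to 237 in the other 10. Ucp1, the uncoupling protein of brown fat, had 24468 counts in WT vehicle 1, 7531 in KO vehicle 2 and 1920 in KO vehicle 3. It had 374 in WT vehicle 4, 378 in KO Treg 2 and 1 to 9 in the rest. The 4 KO vehicle animals all have numbers of the lower of 2 number series in the labels, while WT vehicle and KO Treg have 2 animals of each series. The labels do not call the series a batch.

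Promoter windows are printed for 4 genes, because they show members of each kind beside the values that follow: Cd3d and Cd3g, chains of the receptor that lie head to head, Lck, the first kinase of the pathway, and Il2ra, the member with the smallest p-value. Each line holds the 250 bases before the RefSeq start (GRCm38.p6), 5′ to 3′ on the gene's strand. Capitals mark 3 short motifs searched on both strands: TGTGGT of RUNX factors, AGGAAG of ETS factors and AGATAA of GATA factors.
Cd3d, chr9:44981536-44981785, plus strand: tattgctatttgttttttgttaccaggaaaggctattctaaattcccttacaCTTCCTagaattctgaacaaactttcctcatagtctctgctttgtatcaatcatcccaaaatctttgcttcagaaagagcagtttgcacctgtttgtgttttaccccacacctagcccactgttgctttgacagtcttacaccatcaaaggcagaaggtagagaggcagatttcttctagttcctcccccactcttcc
Cd3g, chr9:44980432-44980681, minus strand: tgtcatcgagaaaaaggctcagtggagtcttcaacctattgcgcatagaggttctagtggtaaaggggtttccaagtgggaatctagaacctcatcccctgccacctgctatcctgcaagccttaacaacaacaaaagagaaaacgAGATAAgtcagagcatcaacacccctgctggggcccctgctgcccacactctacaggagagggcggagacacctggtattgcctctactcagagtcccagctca
Lck, chr4:129573642-129573891, minus strand: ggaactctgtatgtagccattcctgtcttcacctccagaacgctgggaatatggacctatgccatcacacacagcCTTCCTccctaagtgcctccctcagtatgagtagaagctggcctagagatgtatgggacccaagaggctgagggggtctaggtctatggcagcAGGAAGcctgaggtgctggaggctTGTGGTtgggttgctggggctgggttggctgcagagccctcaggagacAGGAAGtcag
Il2ra, chr2:11642542-11642791, plus strand: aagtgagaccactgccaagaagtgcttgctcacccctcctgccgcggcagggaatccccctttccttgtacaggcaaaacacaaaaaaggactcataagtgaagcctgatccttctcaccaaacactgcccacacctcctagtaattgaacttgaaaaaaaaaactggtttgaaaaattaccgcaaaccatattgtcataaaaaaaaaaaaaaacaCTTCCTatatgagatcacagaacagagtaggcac

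The starts of Cd3g and Cd3d are 1355 bases apart. The Lck window held 4 matches: the RUNX letters 58 bases before the start, and the ETS letters 82 and 10 bases before it and, on the other strand, 175 bases before it. The Cd3d window held the ETS letters on the other strand (198 bases before the start), the Cd3g window the GATA letters (104 bases) and the Il2ra window the ETS letters on the other strand (34 bases). No 2 of these matches overlapped. RefSeq entries were found for 25 of the 38 members, with 32 windows between them. Of those 32 windows, 5 held the RUNX letters, 15 the ETS letters and 7 the GATA letters. Over all 32851 windows of this length the shares were 14.0%, 29.5% and 9.99%. A match describes the letters and is not a binding site.

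T cell transcripts were scarce. The 38 genes together gave 7914 counts over the 12 libraries, which is 0.00757% of all counts, 3151 from the general and 4763 from the regulatory genes. Cd247 supplied 17.4% of the general counts. Lrrc32, a surface protein that holds latent TGF-beta on regulatory T cells and is also made by endothelial cells and platelets, supplied 48.1% of the regulatory counts. At these depths 3 counts correspond to 0.241 to 0.539 CPM, and this limit covers counting error only. A count of at least 1 was seen in all 12 libraries for 24 genes, and 4 genes never passed 3 counts. The number of members with a count was 26 to 35 per library in WT vehicle, 30 to 34 in KO vehicle and 30 to 34 in KO Treg. With every library thinned to the smallest total it was 26 to 35, 29 to 33 and 30 to 33.

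**Figure D1:**
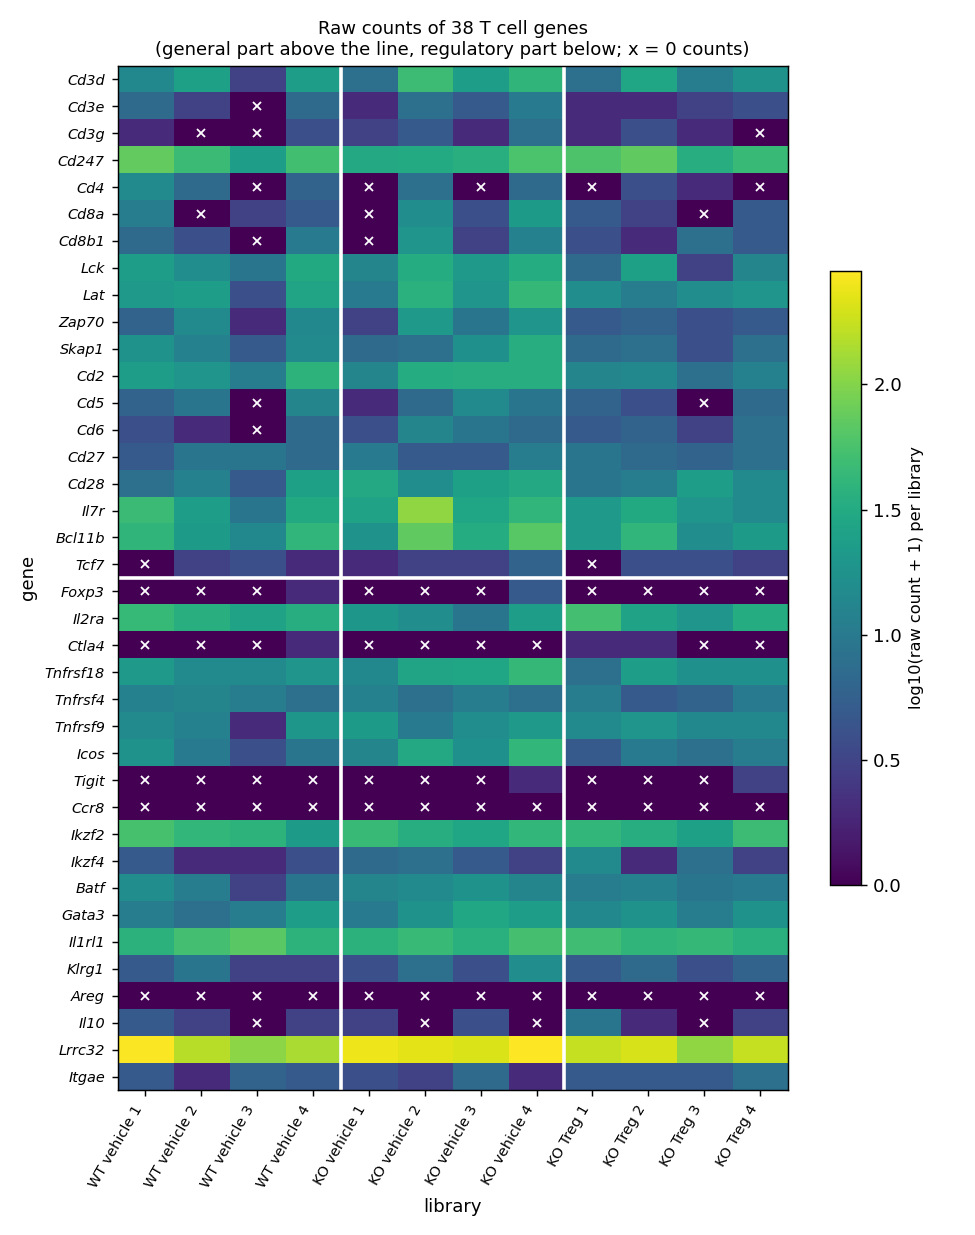
Raw counts of the 38 genes (rows, general genes above the horizontal line and regulatory genes below) in the 12 libraries (columns, grouped by white lines), coloured by log10 of the count plus 1, with a cross where the count is 0. Lrrc32 is the brightest row, with 105 to 284 counts, and Ccr8 and Areg carry a cross in every library.

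Several defining genes of regulatory T cells were at or near the limit of detection. Foxp3 (chromosome X, 7573644 to 7595245, GRCm38) had 4 counts in KO vehicle 4, 1 count in WT vehicle 4 and 0 in the other 10 libraries. A sum of 3 counts over the 4 libraries of a group equals 0.0852 CPM in WT vehicle, 0.0807 in KO vehicle and 0.0941 in KO Treg. With 0 counts in KO Treg, a mean level up to about 0.0941 CPM there could have gone unseen. The annotation places exons of Flicr on the strand of Foxp3, and of Ccdc22, Gm36995 and Ppp1r3f on the opposite strand. No strand setting of the counting is given, so reads of these genes could not be told apart there. Ctla4, the inhibitory receptor that competes with CD28, had a single count in each of WT vehicle 4, KO Treg 1 and KO Treg 2. Tigit, another inhibitory receptor, had 1 count in KO vehicle 4 and 2 in KO Treg 4. Ccr8, a chemokine receptor of tissue regulatory T cells, and Areg, the growth factor amphiregulin, had 0 counts in all 12 libraries, which allows up to 0.0288 CPM of counted reads. Il10, the suppressive cytokine, had 0 to 8 counts, Itgae 1 to 7, Klrg1 2 to 15 and Ikzf4 1 to 14.

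A count near 0 in these tables was not limited to genes of rare cells. Tgfb1, which most tissues express and which was on the list of regulatory T cell signals, had 0 to 6 counts per library. It was singled out after its values were seen. A limit on counts is therefore no bound on the transcript itself where the counting missed its 3' end, which was not tested for any member.

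In the fit over all 12175 genes with enough counts, no member passed the threshold (edgeR quasi-likelihood test, Benjamini-Hochberg adjusted p under 0.05) in any of the 3 comparisons. Of the members, 20 had enough counts to be tested, 10 general and 10 regulatory, and the other 18 did not. Fewer T cells and less RNA per T cell cannot be told apart in whole tissue. The sample titles carry 12 different numbers, and each was read as that of 1 mouse.

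The T cell receptor complex was represented mainly by Cd3d and Cd247. Cd3d, a chain of CD3, had 13, 24, 2 and 22 counts in WT vehicle, 7, 47, 22 and 39 in KO vehicle and 7, 27, 10 and 17 in KO Treg. The lowest and highest libraries differed more within a group than the groups did, and all 3 groups overlapped. Cd247, the zeta chain that carries most of the receptor's signalling motifs and is also used by natural killer cells, had 5.87, 4.93, 4.13 and 6.33 CPM in WT vehicle, 3.31, 3.21, 3.83 and 5.69 in KO vehicle and 6.87, 7.99, 5.13 and 5.46 in KO Treg. Of the 4 KO vehicle libraries, 3 lay below every other library, and KO vehicle 4 lay among the others. The annotation has Gm16565 on the strand of Cd247 and Pou2f1 on the other, both overlapping its exons. Cd3e had 0 to 9 counts and Cd3g 0 to 7, and neither had enough counts to be tested.

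Coreceptor transcripts, which tell helper from cytotoxic T cells, were too low to test. Cd4 had 0 to 14 counts and no count in 5 of the 12 libraries, Cd8a had 0 to 21 and Cd8b1 0 to 18. KO vehicle 1 had no count of any of the 3, whereas KO vehicle 2 and KO vehicle 4 held up to 40 in sum. The summed level of the 3 was 1.504 ± 1.005 CPM in WT vehicle, 2.14 ± 2.16 in KO vehicle and 0.932 ± 0.238 in KO Treg (mean ± SD, n = 4 each).

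Signalling genes spread widely between libraries of one group. Lck, the kinase that starts the signal, had 23, 15, 8 and 30 counts in WT vehicle, 12, 32, 20 and 32 in KO vehicle and 6, 24, 2 and 12 in KO Treg. Lat, the membrane adaptor, had 20, 22, 3 and 26 counts in WT vehicle, 9, 36, 18 and 42 in KO vehicle and 15, 10, 15 and 18 in KO Treg. Skap1, an adaptor that links the receptor to integrins, had 17, 11, 4 and 14 counts in WT vehicle, 6, 7, 16 and 33 in KO vehicle and 6, 7, 3 and 7 in KO Treg. KO vehicle 4 was the highest library for Lat and Skap1 in CPM, and the groups overlapped for all 3 genes. Zap70, the second kinase, had 1 to 20 counts.

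Among the accessory receptors, Cd2, an adhesion molecule of T and natural killer cells, had 1.85, 1.93, 1.80 and 4.81 CPM in WT vehicle, 1.37, 3.31, 3.71 and 3.35 in KO vehicle and 1.42, 1.48, 1.09 and 1.34 in KO Treg. The 4 KO Treg libraries lay within 1.09 to 1.48 CPM and below every WT vehicle library, and KO vehicle 1 was as low as they were. Il7r, the interleukin 7 receptor of resting T cells and of innate lymphoid cells, had 3.70, 2.47, 1.44 and 3.80 CPM in WT vehicle, 2.85, 11.4, 3.04 and 4.06 in KO vehicle and 2.37, 3.43, 2.80 and 1.70 in KO Treg. KO vehicle 2 was far above all other libraries. Cd28, the main costimulatory receptor, had 7, 11, 4 and 24 counts in WT vehicle, 29, 15, 24 and 29 in KO vehicle and 8, 10, 23 and 14 in KO Treg. Cd5 had 0 to 14 counts, Cd6 0 to 12 and Cd27 4 to 10. Of the transcription factors, Bcl11b, which keeps T cells committed to their lineage, had 39, 21, 13 and 40 counts in WT vehicle, 17, 70, 32 and 65 in KO vehicle and 20, 40, 15 and 21 in KO Treg. KO vehicle 2 and KO vehicle 4 were highest, and KO vehicle 1 was among the lowest. Tcf7 had 0 to 5 counts.

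Most general genes ranked the libraries much alike, though no measure of agreement was computed. Of the 10 tested, WT vehicle 4 was among the 3 highest libraries for 9, KO vehicle 4 for 8 and KO vehicle 2 for 6. KO vehicle 1 was among the 3 lowest for 8, and WT vehicle 3 and KO Treg 1 for 5 each. Cd28 departed from this, highest in KO Treg 3 (3.57 CPM) and then KO vehicle 1 (3.31 CPM). So did Cd247, highest in KO Treg 2 (7.99 CPM) and then KO Treg 1 (6.87 CPM). High and low libraries therefore occurred within the same group.

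In the regulatory core, Il2ra (chromosome 2, 11642807 to 11693193) had 3.46, 3.64, 4.49 and 4.18 CPM in WT vehicle, 2.17, 1.55, 0.90 and 2.23 in KO vehicle and 6.16, 2.85, 2.80 and 3.88 in KO Treg, from 8 to 52 counts per library. All 4 KO vehicle libraries were below every library of the other 2 groups, and WT vehicle and KO Treg overlapped. Icos, a costimulatory receptor of activated and regulatory T cells (chromosome 1, 60977927 to 61000320), had 1.37, 0.96, 0.54 and 1.01 CPM in WT vehicle, 1.37, 2.998, 1.80 and 4.16 in KO vehicle and 0.47, 1.03, 1.09 and 1.21 in KO Treg, from 3 to 41 counts. The KO vehicle libraries were the 4 highest, although the lowest of them, KO vehicle 1, and the highest WT vehicle library were equal at 2 decimals. The 2 receptors thus went opposite ways in KO vehicle.

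Tnfrsf18, the receptor GITR, had 20, 14, 14 and 18 counts in WT vehicle, 13, 26, 27 and 42 in KO vehicle and 7, 23, 16 and 16 in KO Treg. Tnfrsf9, the receptor 4-1BB, had 14, 11, 1 and 19 counts in WT vehicle, 21, 9, 15 and 20 in KO vehicle and 14, 18, 13 and 13 in KO Treg. For both, the 3 groups overlapped. Tnfrsf4, the receptor OX40, had 4 to 12 counts.

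Among the transcription factors of regulatory T cells, Ikzf2, which encodes Helios, had 54, 41, 38 and 21 counts in WT vehicle, 44, 33, 27 and 41 in KO vehicle and 41, 33, 24 and 47 in KO Treg. Gata3, which innate lymphoid cells also express, had 10, 7, 10 and 22 counts in WT vehicle, 9, 17, 28 and 22 in KO vehicle and 13, 17, 10 and 17 in KO Treg. Batf, which tissue regulatory T cells need and B cells also express, had 15, 10, 2 and 8 counts in WT vehicle, 12, 14, 17 and 12 in KO vehicle and 10, 11, 8 and 9 in KO Treg. Scaled to CPM, Batf was 1.22 to 1.91 in KO vehicle and 0.359 to 1.21 in WT vehicle, which just did not overlap.

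Lrrc32 and Il1rl1 were the tissue genes with the most counts. Lrrc32 (chromosome 7, 98489283 to 98502181) had 22.27, 16.61, 18.87 and 17.36 CPM in WT vehicle, 28.08, 23.26, 23.08 and 28.84 in KO vehicle and 20.50, 22.84, 17.09 and 21.00 in KO Treg. All 4 KO vehicle libraries were above every library of the other groups, though only narrowly above KO Treg 2 and WT vehicle 1. Il1rl1, the interleukin 33 receptor, which mast cells and innate lymphoid cells also carry, had 37, 52, 66 and 38 counts in WT vehicle, 37, 44, 35 and 53 in KO vehicle and 49, 39, 42 and 35 in KO Treg. Its groups overlapped.

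**Figure D2:**
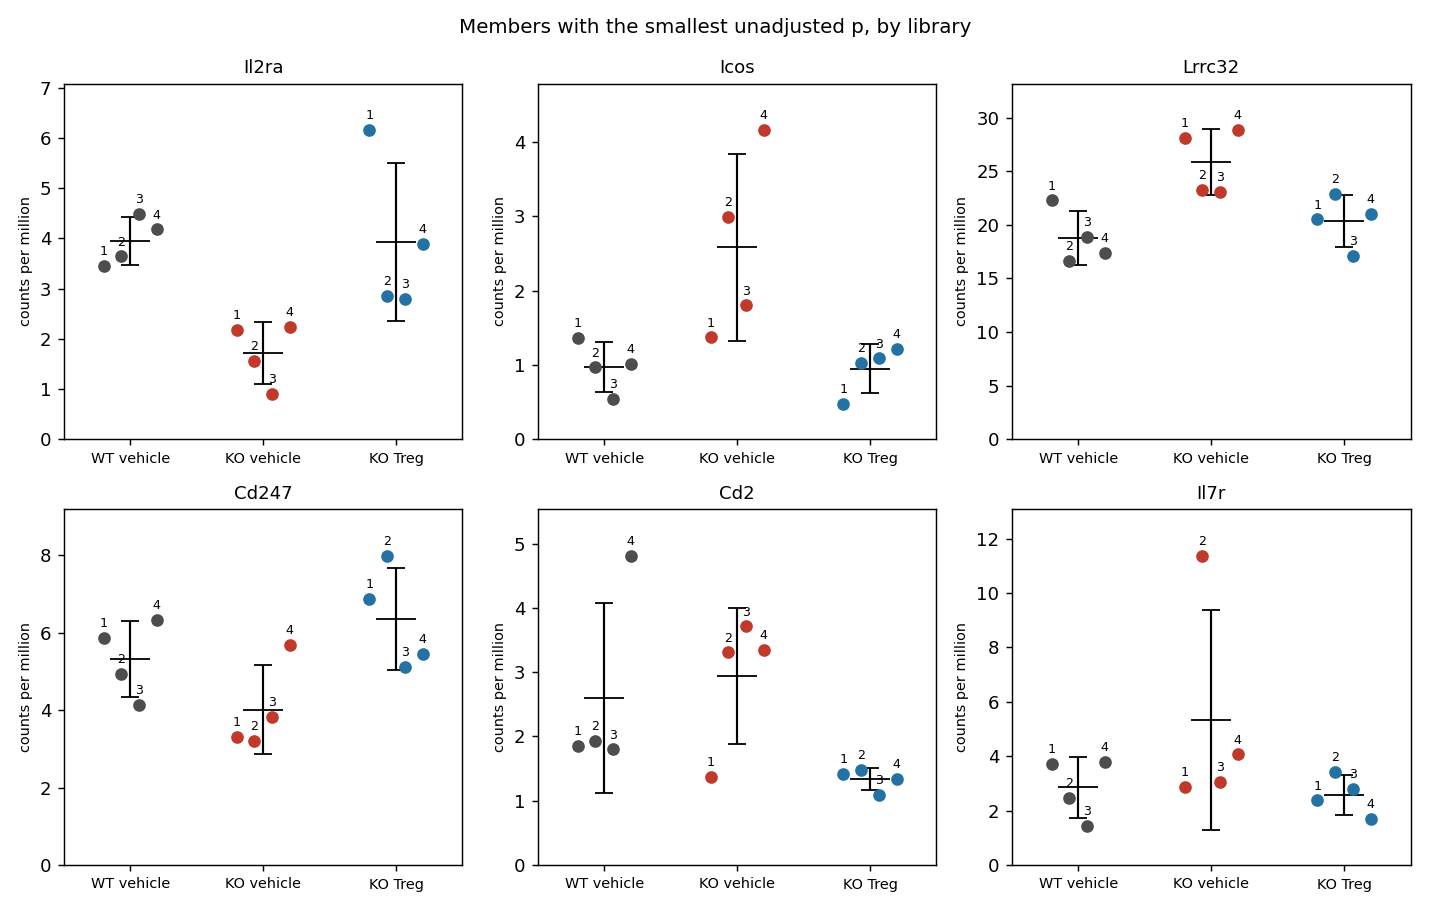
Level in CPM (vertical axes) of the 6 members with the smallest unadjusted p-values, by group (horizontal axes), with 1 point per library numbered by replicate and black bars for the mean and SD of 4. Il2ra is lowest and Icos and Lrrc32 are highest in the 4 KO vehicle libraries, and single libraries stand far above the rest for Cd2 (WT vehicle 4, 4.81 CPM) and Il7r (KO vehicle 2, 11.4 CPM).

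Summed per library, the general genes gave 27.4 ± 11.3 CPM in WT vehicle (89 to 339 counts), 36.6 ± 14.5 CPM in KO vehicle (165 to 475 counts) and 24.7 ± 3.70 CPM in KO Treg (150 to 263 counts; mean ± SD, n = 4 each). The WT vehicle libraries spanned 16.0 to 43.0 CPM, KO vehicle 18.8 to 49.1 and KO Treg 21.6 to 30.0, so the groups overlapped and the spread between libraries was about as large as the difference between means. As log2 ratios of group means, the general sum was 0.42 in KO vehicle against WT vehicle and -0.57 in KO Treg against KO vehicle. With KO vehicle 2 and KO vehicle 4 left out, these became -0.15 and -0.0029. Both were picked after their sums were seen to be the highest of that group, so a lower KO vehicle mean was fixed in advance. The high WT vehicle 4 (43.0 CPM) was kept. The change therefore shows only how much the 2 libraries weigh and is no test of the difference. KO Treg against WT vehicle gave -0.15, which became 0.15 without WT vehicle 4.

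The regulatory genes varied less. Their sum was 42.8 ± 5.41 CPM in WT vehicle (282 to 514 counts), 49.5 ± 5.84 CPM in KO vehicle (404 to 567 counts) and 45.0 ± 2.69 CPM in KO Treg (267 to 404 counts). Without Lrrc32 the sums were 24.1 ± 5.51, 23.7 ± 3.38 and 24.7 ± 2.24 CPM, and the log2 ratio of KO vehicle to WT vehicle went from 0.21 to -0.022. The core of 9 genes summed to 9.39 ± 1.19 CPM in WT vehicle, 10.01 ± 2.61 in KO vehicle and 9.67 ± 0.631 in KO Treg. Of these genes, Foxp3, Ctla4, Tigit and Ccr8 had only 5, 3, 3 and 0 counts over the 12 libraries. The sum therefore describes almost only Il2ra, Icos, Tnfrsf18, Tnfrsf9 and Tnfrsf4. Within the core, lower Il2ra in KO vehicle stood beside higher Icos.

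**Figure D3:**
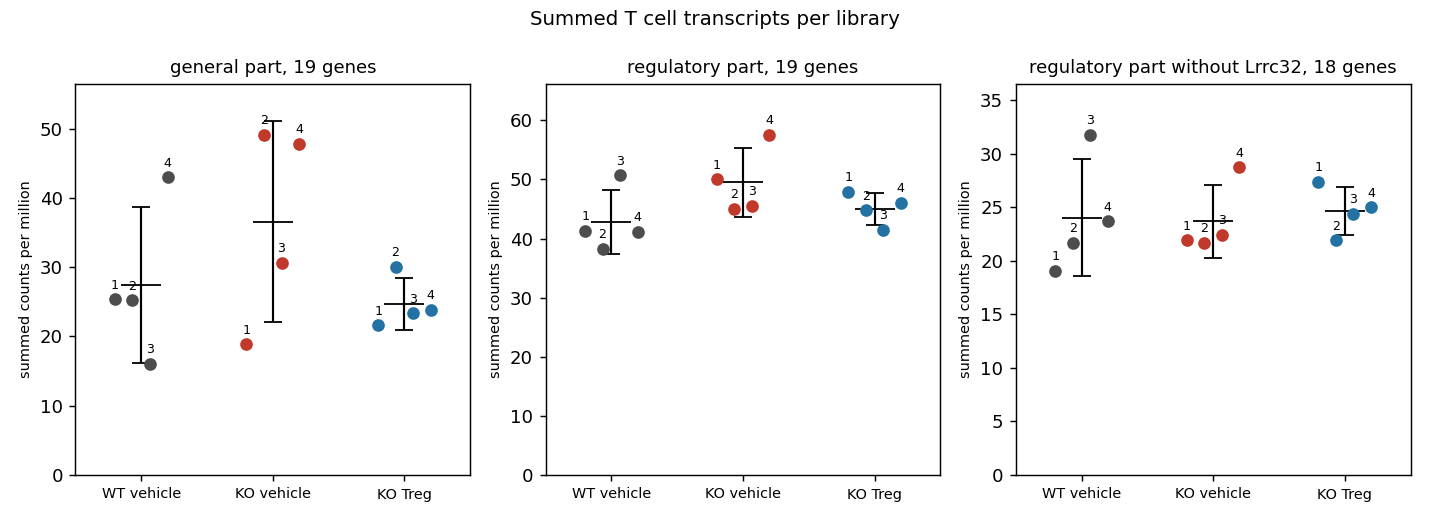
Summed CPM (vertical axes, from 0) of the 19 general genes, the 19 regulatory genes and the regulatory genes without Lrrc32, by group, with 1 numbered point per library and black bars for the mean and SD of 4. The general sums run from 16.0 to 49.1 and overlap between all groups, and without Lrrc32 the regulatory means lie between 23.7 and 24.7.

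The share of the summed counts that came from the regulatory genes compares both kinds within a library and does not depend on scaling. It was 62.0%, 60.3%, 76.0% and 48.9% in WT vehicle, 72.6%, 47.8%, 59.8% and 54.7% in KO vehicle, and 68.9%, 59.8%, 64.0% and 65.9% in KO Treg. The exact 95% binomial interval was 71.3% to 80.3% for WT vehicle 3, the highest, and 44.5% to 51.1% for KO vehicle 2, the lowest. The means were 61.8% ± 11.1 in WT vehicle, 58.7% ± 10.49 in KO vehicle and 64.7% ± 3.81 in KO Treg (SD, n = 4). The shares of all groups overlapped. Without Lrrc32 the means were 47.8% ± 13.3, 41.1% ± 9.72 and 50.1% ± 5.74.

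Between KO vehicle and WT vehicle, Il2ra was lower by a log2 ratio of -1.18 ± 0.34 (SE) (edgeR adjusted p = 0.149). Icos was higher by 1.35 ± 0.43 (edgeR adjusted p = 0.180) and Lrrc32 by 0.46 ± 0.15 (edgeR adjusted p = 0.189). No member was called, against 0.279% of all genes tested (34 of 12175). At an unadjusted p under 0.05 edgeR counted 2 members higher and 1 lower of the 20 tested, against 6.98% and 5.45% of all genes. The count of higher members was 5 without KO vehicle 1 and 4 without WT vehicle 4, and that of lower members was 2 without KO vehicle 4 or without WT vehicle 1. Groups did not overlap for 3 members that were higher (Icos, Lrrc32 and Batf) and 1 that was lower (Il2ra), against 4.17% and 2.33% of all genes. DESeq2 called 1 member, Il2ra (log2 ratio -1.20, adjusted p = 0.0442, among 259 genes called), and limma voom called 0. Over all 23 alternatives the adjusted p of Il2ra ran from 0.0442 to 0.419.

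Most general genes had a log2 ratio above 0 in KO vehicle against WT vehicle, and none passed the test. Of 10 tested, 9 had a log2 ratio above 0 with a median of 0.45, as had 6 of 10 regulatory genes with a median of 0.46. Over all genes 49.2% were above 0, with a median of -0.0039. Since most general genes ranked the libraries much alike, their shared sign is not 10 separate results. KO vehicle 2 and KO vehicle 4 were among the 3 highest libraries for 6 and 8 of the 10 tested. KO vehicle 1 was among the 3 lowest for 8. Cd28 had 0.94 ± 0.51, Il7r 0.87 ± 0.43 and Cd3d 0.81 ± 0.56, and the only general gene below 0 was Cd247 with -0.41 ± 0.25. In the animals of the lower number series alone, with 2 WT vehicle libraries, edgeR gave -1.05 for Il2ra (adjusted p = 0.419), 1.12 for Icos (adjusted p = 0.508) and 0.39 for Lrrc32 (adjusted p = 0.511), with Il2ra alone of the 3 still at an unadjusted p under 0.05.

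KO Treg was compared with the same KO vehicle libraries, so values that were high there appear as low here, and the other way round. Il2ra had a log2 ratio of 1.19 ± 0.34 (edgeR adjusted p = 0.306) and Cd247 one of 0.67 ± 0.25 (edgeR adjusted p = 0.457). Icos had -1.44 ± 0.44 (edgeR adjusted p = 0.334) and Lrrc32 -0.34 ± 0.15 (edgeR adjusted p = 0.521). Cd2, Il7r and Skap1 had -1.13 ± 0.41, -1.05 ± 0.44 and -1.19 ± 0.53 (edgeR adjusted p = 0.446, 0.513 and 0.531). Il7r went to -0.35 (edgeR adjusted p = 0.909) without KO vehicle 2, and Skap1 to -0.55 (edgeR adjusted p = 0.864) without KO vehicle 4, both no longer at an unadjusted p under 0.05.

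No member was called by edgeR, DESeq2 or limma voom in KO Treg against KO vehicle, where edgeR called 0.00821% of all genes (1 of 12175). At an unadjusted p under 0.05 edgeR counted 2 members higher and 5 lower, against 3.69% and 5.08% of all genes. The count of lower members was 2 without KO Treg 1 or KO Treg 4 and 3 without KO Treg 3 or KO vehicle 4, and that of higher members was 1 without KO Treg 2. Without both libraries with placental transcripts, a choice made after seeing the data, it was 1 higher and 9 lower. Groups did not overlap for 1 member that was higher (Il2ra) and 2 that were lower (Icos and Lrrc32), against 2.01% and 3.03%. Only 1 of 10 general genes was above 0, with a median of -0.82, and 4 of 10 regulatory genes with a median of -0.15. As most general genes ranked the libraries much alike, their shared sign is not 10 separate results. Over all genes 49.7% were above 0. For the lower number series alone, with 2 KO Treg libraries, edgeR gave 1.40 for Il2ra (adjusted p = 0.565), -1.75 for Icos (adjusted p = 0.621) and -0.23 for Lrrc32 (adjusted p = 0.928), with Il2ra and Icos at an unadjusted p under 0.05.

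In KO Treg against WT vehicle, at an unadjusted p under 0.05, edgeR counted 0 members higher and 1 lower, Cd2, against 1.54% and 1.32% of all genes. Cd2 had a log2 ratio of -0.94 ± 0.41 (edgeR adjusted p = 0.99999), and -0.47 without WT vehicle 4, no longer at an unadjusted p under 0.05. The count of lower members was also 0 without KO Treg 1, KO Treg 3 or KO Treg 4, and without WT vehicle 4 it was 1 higher and 0 lower. It was also the 1 member whose groups did not overlap, on the lower side, where the share of all genes was 0.821%, with 0.813% on the higher side. The edgeR test called 0% of all genes here, with 188 genes higher and 161 lower at an unadjusted p under 0.05, while DESeq2 called 1 gene and limma voom 0. Il2ra had 0.01 ± 0.32, Icos -0.10 ± 0.47 and Lrrc32 0.12 ± 0.15. Of the general genes 3 of 10 were above 0 (median -0.14), and of the regulatory genes 7 of 10 (median 0.01), beside 49.0% of all genes.

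**Figure D4:**
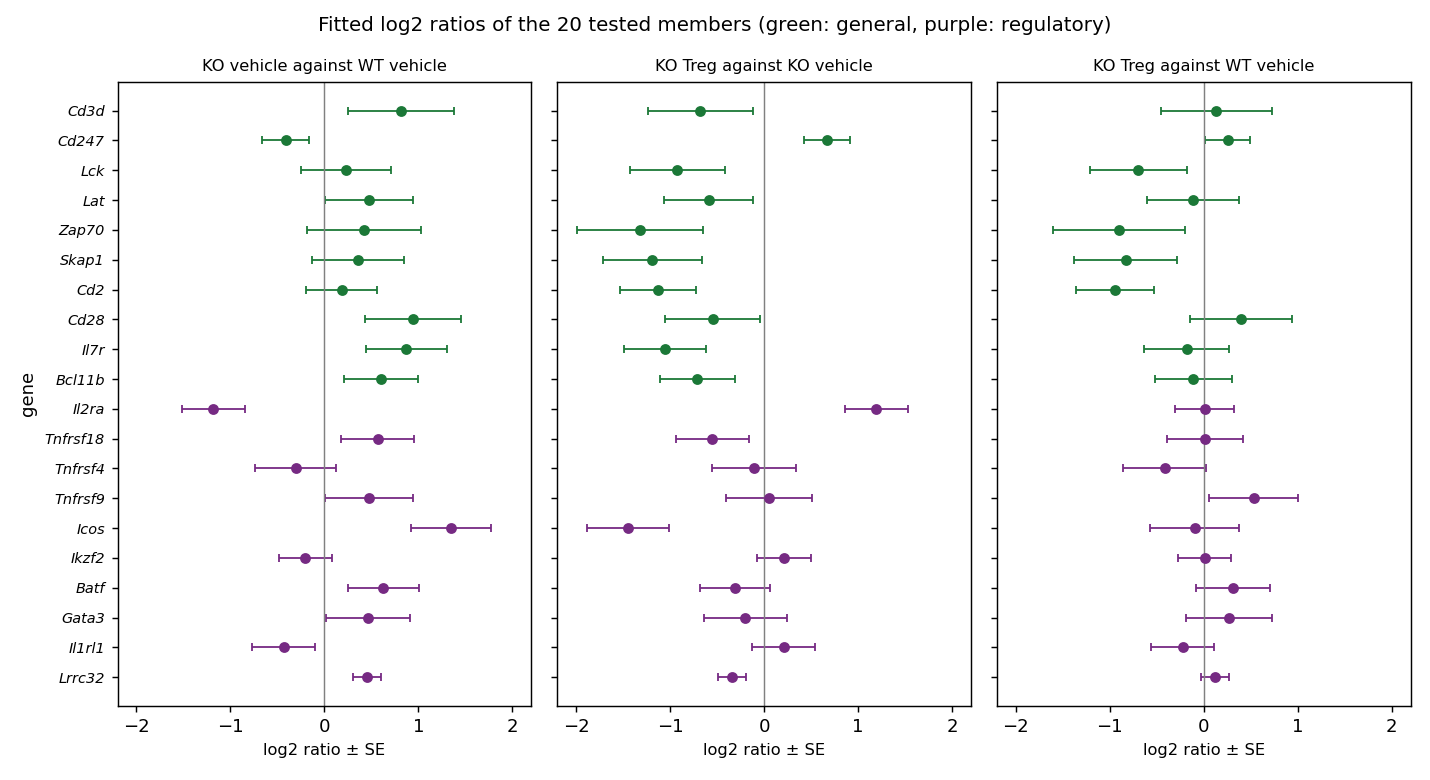
Fitted log2 ratios with their standard errors (horizontal axes) of the 20 tested members (rows, general in green and regulatory in purple) in the 3 comparisons. In KO vehicle against WT vehicle 15 of 20 lie above 0 and in KO Treg against KO vehicle 5 of 20, and these panels share the KO vehicle libraries.

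Other genes of the same pathways were read from 2 further lists. Of 30 further genes of T cell receptor signalling and T cell traffic, 27 were found and 12 tested. None passed the threshold in any comparison. Of the 12, 11 were above 0 in KO vehicle against WT vehicle (median 0.23) and 1 in KO Treg against KO vehicle (median -0.34).

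Of 33 ligands and signals of regulatory T cells, 32 were found and 19 tested, and none passed the threshold. In KO vehicle against WT vehicle 12 of 19 were above 0 (median 0.11), and in KO Treg against KO vehicle 7 of 19 (median -0.13). Il2rg, the common chain that pairs with IL2RA and IL7R, had 44, 38, 16 and 38 counts in WT vehicle, 68, 67, 50 and 66 in KO vehicle and 26, 35, 33 and 36 in KO Treg. Its log2 ratio was 0.81 ± 0.23 in KO vehicle against WT vehicle (edgeR adjusted p = 0.149) and -0.71 ± 0.23 in KO Treg against KO vehicle (edgeR adjusted p = 0.375). Thus Il2rg and Il2ra, chains of one receptor, lay on opposite sides in KO vehicle. Il10ra, the receptor of interleukin 10, was 3.68 ± 0.842 CPM in WT vehicle, 6.24 ± 0.927 in KO vehicle and 3.68 ± 0.714 in KO Treg (mean ± SD, n = 4). Il2, the ligand of IL2RA, had 0 or 1 count, Il33 had 84 to 294, and Tnfsf18 and Tnfsf4, the ligands of GITR and OX40, had none.

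Genes of effector T cells gave no called member either, with 6 of 19 tested. Ifng, Il4, Il17a, Il17f and Gzmk had 0 counts in all 12 libraries.

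Several members are made by other immune cells, and Lrrc32 also by endothelial cells. Markers of these cells were read beside them. The macrophage list (5 of 6 genes found) summed to 583 to 700 CPM in WT vehicle, 661 to 900 in KO vehicle and 557 to 793 in KO Treg, mostly from C1qa. Cd68 was 23.4 ± 3.18 CPM in WT vehicle, 38.5 ± 6.90 in KO vehicle and 25.7 ± 8.06 in KO Treg. Its KO vehicle libraries (31.5 to 47.6) lay above all those of WT vehicle (20.6 to 26.9). C1qa, C1qb, Csf1r and Mrc1 also had their highest mean in KO vehicle, but their groups overlapped. Among dendritic cell genes Itgax, also a gene of fat macrophages, was 1.21 ± 0.321 CPM in WT vehicle, 4.43 ± 0.894 in KO vehicle and 1.80 ± 1.09 in KO Treg, highest in KO vehicle as Icos was. Of the other 4 genes, Zbtb46 was 2.93 ± 1.07, 3.02 ± 1.48 and 2.66 ± 1.16 CPM in the same order, Xcr1 1.14 ± 0.0908, 1.08 ± 0.560 and 1.09 ± 0.255, and Clec9a 0.467 ± 0.554, 0.445 ± 0.364 and 0.337 ± 0.238, while Flt3 had 0 to 4 counts. The list of 5 summed to 4.18 to 8.24, 6.08 to 12.5 and 4.25 to 9.14 CPM, and Itgax gave most of the difference between its means. Natural killer cell markers (6 genes) summed to 16 to 88 counts per library and B cell markers (6 genes) to 13 to 72, with Pax5 at 0 throughout. The mast cell list (7 genes) was 28.0 to 45.6 CPM in WT vehicle, 17.6 to 28.3 in KO vehicle and 23.0 to 31.5 in KO Treg, and the list of group 2 innate lymphoid cells (6 genes, most of its counts from Rora) 126 to 145, 100 to 146 and 127 to 143 CPM. Both means were lowest in KO vehicle, as was that of Il2ra. In the first list this held for Cpa3, Cma1, Mcpt4, Tpsb2, Ms4a2 and Kit. Hdc was lowest in KO Treg (5.78, 5.78 and 5.24 CPM on average in the same order). In the second list this came from Rora (113, 102 and 115 CPM on average in the same order) and Hlf (19.8, 12.1 and 18.7). Calca was lowest in KO Treg (2.16, 2.01 and 1.62 CPM). Il17rb had 4 to 18 counts, and Il5 and Il13 had 0 to 2, too few to show these cells. Of the lymph node genes, Ccl21a and Ccl19 were at 0 in all 12 libraries, and Madcam1 had 64 and 75 counts in KO vehicle 1 and KO vehicle 2 and 0 to 17 in the other 10. Cxcl13, the fourth of them, had 17 to 53 counts, with 5.17 ± 1.70 CPM in WT vehicle, 3.77 ± 1.46 in KO vehicle and 3.39 ± 1.54 in KO Treg. Endothelial markers (4 genes) summed to 970 ± 102 CPM in WT vehicle, 1060 ± 73.4 in KO vehicle and 1001 ± 27.9 in KO Treg. The mean of this sum was highest in KO vehicle, as was that of Lrrc32, but the groups overlapped. By gene, this held for Kdr (286, 328 and 243 CPM on average in the same order) and Cdh5 (112, 124 and 121). Pecam1 (554, 588 and 616) and Tek (18.3, 19.5 and 21.1) had their highest mean in KO Treg. The part of these cells in the values of the members was not tested.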

How the data were processed

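For each library the authors deposited 1 table of raw counts by gene symbol. Per the labels' protocols, total RNA was treated with DNase and libraries were made with a QuantSeq 3' kit, so reads, and with them counts, come from the 3' ends of transcripts. Per the submitters' processing notes the build was mm10 and the tools TopHat2 2.1.1, HTSeq 0.6.1, BWA 0.7.12 and SAMtools 1.3.1. For the gene models and the use of strand in counting, the settings are not given in the sources used.

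The deposited counts were filtered by filterByExpr, scaled by TMM and tested by the robust quasi-likelihood test of edgeR 4.0.16 (R 4.3.3) in 1 fit of 3 groups over 12175 genes, with Benjamini-Hochberg adjustment and a threshold of 0.05. The SE of a log2 ratio is its size over the square root of F. DESeq2 1.42.0 and limma 3.58.1 (voom) were alternatives, beside other scalings and filters, thinned counts, the number series as a covariate or its lower series alone, and leaving out each library. The fit was tested on simulated data. Sums and shares have no test. Binomial intervals and the 3-count limit cover counting error only.

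The members and lists were chosen with earlier results of these data known. Values per library are given for Foxp3, for members with a mean of at least 10 counts and for those with an unadjusted p under 0.05. Replicate numbers follow the order of the samples. Positions are from GENCODE M21 on GRCm38 (mm10), promoters from RefSeq.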

Additional observations from a re-analysis of the deposited data

Results flagged for a closer look

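Of 63 checks of 4 libraries each, 3 found 1 library far from the others of its group by Dixon's test at the 95% level, which flags about 1 in 20 groups by chance. Cd2 was 4.81 CPM in WT vehicle 4 and 1.80 to 1.93 CPM in the other WT vehicle libraries. Il7r was 11.4 CPM in KO vehicle 2 and 2.85 to 4.06 CPM in the other KO vehicle libraries. Bcl11b was 4.57 CPM in KO Treg 2, one of the libraries with placental transcripts, and 2.33 to 2.55 CPM in the other KO Treg libraries.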

How the results depend on the processing

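Of 600 values under alternatives for 32 results, 587 counted as unchanged. Log2 ratios were followed only for members with an unadjusted p under 0.05, and 0 of them changed sign. They counted as unchanged if the side of the threshold was also kept. Counts of members above 0 had to stay within a set factor of the main count. Sums, shares and numbers of members detected had to stay within the spread between libraries, whatever their sign. Since the main fit called no member, no called value could reverse. DESeq2 called 1 member in KO vehicle against WT vehicle, Il2ra (log2 ratio -1.20, adjusted p = 0.0442); the cause was not tested. In the other 22 alternatives of that comparison, and in all 23 of each other comparison, 0 members were called. Over all settings KO vehicle against WT vehicle gave 0 to 259 called genes, KO Treg against KO vehicle 0 to 61, and KO Treg against WT vehicle 0 to 1. Leaving out KO vehicle 2 and KO vehicle 4 was a choice made after seeing the data. Their general sums were the highest of KO vehicle, so its mean had to fall. The log2 ratio of the general sums of KO Treg and KO vehicle then went from -0.57 to -0.0029. That of the regulatory sums went from 0.21 to -0.022 (KO vehicle against WT vehicle) and from -0.14 to 0.059 (KO Treg against KO vehicle) without Lrrc32, to 0.011 for the latter with a mean of log2 CPM, and from 0.073 to 0.219 (KO Treg against WT vehicle) in the lower number series alone. Members with at least 3 counts numbered 26.25, 28.5 and 27.5 on average in WT vehicle, KO vehicle and KO Treg, against 31, 32 and 32 with at least 1. In KO Treg against WT vehicle, 5 general members were above 0 without WT vehicle 4 or in the lower series alone, and 4 regulatory members without WT vehicle 2. Without the 2 libraries with placental transcripts, also chosen after seeing the data, edgeR called 3, 0 and 0 genes and 0 members. No paired analysis was possible because the labels give each animal a number of its own and the groups share none.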
